A study of Mus musculus with 24 samples.

Results

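Intronic primed enhancers were the H3K27ac peaks (regions where histone H3 carried an acetyl group on lysine 27) whose deposited chromatin state was primed enhancer, whose deposited annotation began with "intron", and whose width was under 10000 bp. This rule, which used no count, found 22918 of the 144154 peaks, or 15.9%, and 67.6% of the 33879 peaks of the primed state. The primed state held another 258 intronic peaks at or over the width limit. After a filter on low counts that removed 7, 22911 were tested.

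A primed enhancer is usually recognised by monomethylation of lysine 4 on histone H3 with little acetylation of lysine 27, and it can gain acetylation when a signal activates the cell. Acetyl groups are added by acetyltransferases such as CBP and p300 and removed by histone deacetylases. In neurons, introns of long synaptic genes hold many enhancers, and activity changes their acetylation within the time that induced transcription takes. The state of each peak is the deposited one, and the sources used here do not say which map it came from.

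Male C57BL/6J mice aged 12 weeks gave dentate gyrus nuclei, which were sorted by NeuN, a marker of neurons, and studied by low-input chromatin immunoprecipitation sequencing (the sample titles name the hippocampus). The groups were HDACi-CFC, Veh-CFC, HDACi-Context and Veh-Context, with 3 libraries each. HDACi mice were given 30 mg/kg of CI-994, which blocks class I histone deacetylases, into the peritoneum, and Veh mice received the vehicle, 1 h before the test. CFC mice went through contextual fear conditioning, which was 3 min of habituation and then 2 foot shocks of 1 s at 0.2 mA, Context mice spent as long in the chamber with no shock, and all were killed 1 h later. All groups thus shared the injection, the handling and the chamber. Mice of 1 cage shared the conditioning protocol, so cage and shock cannot be told apart. The labels do not say that each replicate came from separate mice, so p-values measure the spread between these libraries.

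As a class, intronic primed enhancers were peaks of ordinary size. Their median width was 1223 bp, against 1189 bp over all peaks tested. Their median level was 2.86 CPM (counts scaled to a common library total) per kilobase of peak, against 2.89 CPM per kb in the 22410 intronic active enhancers, 3.61 CPM per kb in peaks of the strong promoter state and 2.82 CPM per kb over all peaks. The levels per length of the primed and the active class thus lay close together, and the name is used below only as the deposited label. They lay a median of 24132.5 bp from the transcription start site (TSS) named beside them, and 1749, or 7.63%, had an edge within 1000 bp of it. An intron of a gene in RefSeq was matched for 22903, in 6872 host genes, and 9175, or 40.03%, lay in the first intron. The host was the gene named beside the peak in 76.2%. The densest members by CPM per kb included peaks in intron 1 of Kif21a, which encodes a kinesin motor, and intron 10 of Csmd3.

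The DNA of whole peaks was not read here, since no genome sequence was used. RefSeq promoter sequences on the build GRCm38.p6, the assembly of mm10, lay wholly inside 220 of the members (249 of 32851 sequences, of which the 250 bases upstream of the start were used). RefSeq microRNAs lay wholly inside 6 members. The promoter sequences printed here belong to members whose acetylation was called changed, chosen with those calls known, so that the change can be read beside the base composition. Coordinates are mm10, each sequence runs 5′ to 3′ on the strand given, and capitals mark CG pairs. The first 3 lie in members that rose under CI-994, in introns of Dennd4a, Cebpg and Dyrk1a, a kinase studied in brain development.
Gm36459, chr9:64814729-64814978, minus strand: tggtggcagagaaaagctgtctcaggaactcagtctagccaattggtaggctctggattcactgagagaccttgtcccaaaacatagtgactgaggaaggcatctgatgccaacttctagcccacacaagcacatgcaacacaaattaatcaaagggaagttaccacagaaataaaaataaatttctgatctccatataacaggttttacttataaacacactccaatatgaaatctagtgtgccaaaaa
Gm45095, chr7:35055233-35055482, plus strand: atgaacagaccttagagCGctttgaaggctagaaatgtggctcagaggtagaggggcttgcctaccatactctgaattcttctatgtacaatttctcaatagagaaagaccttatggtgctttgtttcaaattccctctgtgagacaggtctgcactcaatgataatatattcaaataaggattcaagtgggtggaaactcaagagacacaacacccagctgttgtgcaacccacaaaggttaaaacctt
Dyrk1a, chr16:94611169-94611418, plus strand: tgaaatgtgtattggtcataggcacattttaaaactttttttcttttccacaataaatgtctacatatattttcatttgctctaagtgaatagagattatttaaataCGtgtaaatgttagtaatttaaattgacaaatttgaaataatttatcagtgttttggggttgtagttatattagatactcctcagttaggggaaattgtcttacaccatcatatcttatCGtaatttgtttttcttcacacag
The next 3 lie in members that fell under CI-994. Slc35b1 is a solute carrier of the endoplasmic reticulum, Ppt1 a lysosomal thioesterase and Polr2a the largest subunit of RNA polymerase II.
Slc35b1, chr11:95384606-95384855, plus strand: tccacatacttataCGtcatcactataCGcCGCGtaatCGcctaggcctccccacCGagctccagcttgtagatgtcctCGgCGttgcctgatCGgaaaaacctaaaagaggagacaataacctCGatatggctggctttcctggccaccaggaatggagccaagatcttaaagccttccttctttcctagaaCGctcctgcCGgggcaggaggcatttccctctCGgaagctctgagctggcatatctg
Ppt1, chr4:122835977-122836226, plus strand: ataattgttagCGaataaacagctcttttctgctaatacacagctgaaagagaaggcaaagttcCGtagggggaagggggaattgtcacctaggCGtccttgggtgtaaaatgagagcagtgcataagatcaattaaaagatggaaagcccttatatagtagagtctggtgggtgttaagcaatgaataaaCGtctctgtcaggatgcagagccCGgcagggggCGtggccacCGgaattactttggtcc
Polr2a, chr11:69758634-69758883, minus strand: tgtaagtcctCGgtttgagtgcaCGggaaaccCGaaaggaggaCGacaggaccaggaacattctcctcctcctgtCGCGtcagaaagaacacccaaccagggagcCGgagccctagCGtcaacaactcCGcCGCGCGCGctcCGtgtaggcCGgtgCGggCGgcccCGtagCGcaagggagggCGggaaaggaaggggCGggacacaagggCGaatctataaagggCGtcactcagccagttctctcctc
The last pair lies in members that rose (Prkaca, the alpha catalytic subunit of protein kinase A) and fell (Slc4a10, a sodium-coupled bicarbonate transporter) with the shock.
Prkaca, chr8:83976633-83976882, plus strand: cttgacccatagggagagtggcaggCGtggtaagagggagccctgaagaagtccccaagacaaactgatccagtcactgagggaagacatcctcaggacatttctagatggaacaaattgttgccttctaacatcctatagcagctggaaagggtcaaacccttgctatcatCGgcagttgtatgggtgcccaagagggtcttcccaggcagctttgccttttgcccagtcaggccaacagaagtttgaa
Slc4a10, chr2:62147628-62147877, plus strand: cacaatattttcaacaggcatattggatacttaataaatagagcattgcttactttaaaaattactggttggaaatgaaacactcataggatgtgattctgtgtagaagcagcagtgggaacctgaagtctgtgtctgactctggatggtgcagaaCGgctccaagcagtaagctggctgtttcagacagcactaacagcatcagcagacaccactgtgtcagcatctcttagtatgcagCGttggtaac
These sequences held 0, 1 and 2 CG pairs in the members that rose under CI-994 and 13, 7 and 23 in those that fell, with a GC content of 40, 41.6 and 27.2% against 53.2, 46.4 and 62.8%. The pair called with the shock held 2 CG pairs each, with a GC content of 50.8% for Prkaca and 42.8% for Slc4a10.

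MicroRNA genes in members are shown because the hosts' introns carry both the microRNA and the acetylated region. Capitals mark the seed, bases 2 to 8, and no seed below is shared. The first lies in an intron of Cdk17, whose member rose under CI-994, and the others in members of Atp5b and Fads1 that rose with the shock.
mmu-miR-1931: aUGCAAGGgcuggugcgauggc
mmu-miR-677-5p: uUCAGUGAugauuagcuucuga
mmu-miR-6993-5p: aGUGGGAGaaacgggugucuguc

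Counts in peaks ranged over 6639158 to 16734757 per library, of which 803691 to 2344915 fell in intronic primed enhancers. The share of counts in members was 12.0% ± 0.18 in HDACi-CFC, against 11.6% ± 0.28 in Veh-CFC, and 14.0% ± 0.30 in HDACi-Context, against 11.9% ± 0.32 in Veh-Context (SD, n = 3 each). Promoter peaks (an edge within 1000 bp of the TSS) took 25.3% ± 0.10 in HDACi-CFC, against 25.8% ± 0.92 in Veh-CFC, and 19.0% ± 0.66 in HDACi-Context, against 21.9% ± 0.55 in Veh-Context. HDACi-Context had both the highest share in members and the lowest share in promoters, and the part of this in the results below was not tested. Levels below are CPM on totals adjusted by TMM, a scaling that assumes most peaks do not differ, so every change is relative to the other peaks. At neuronal promoters Snap25 had 6.85 and Rbfox3, the NeuN gene, 4.86 CPM per kb, and the granule neuron markers Prox1 and C1ql2 had 7.53 and 3.77. Of glial promoters Gfap had 2.20 and Cx3cr1 1.81, while Mbp at 4.09 and P2ry12 at 4.00 were above C1ql2.

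Under CI-994, more intronic primed enhancers gained acetylation than lost it. Over both behaviours, 1712 rose (7.47%) and 228 fell (0.995%) by edgeR's quasi-likelihood test at a Benjamini-Hochberg adjusted p under 0.05, where over all peaks 3.52% rose and 5.81% fell. The median log2 change was 0.088 in members and −0.019 over all peaks, and 63.6% of members had a positive change. Among the intronic active enhancers 728 rose and 762 fell, and among 8283 intergenic primed enhancers 396 rose and 112 fell. Of the called members, 489 of the 1712 that rose and 26 of the 228 that fell had no overlap between the 6 HDACi and the 6 Veh libraries. That was 2.13% and 0.113% of the members tested, where 0.908% and 1.07% of all peaks did the same. As shares of the called peaks these were 28.6% and 11.4% in members, against 25.8% and 18.5% over all peaks. The number that fell was 149, 144, 131 and 131 without HDACi-CFC replicates 1 and 3, HDACi-Context replicate 2 and Veh-Context replicate 3, and 344 without HDACi-Context replicate 1.

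**Figure D1:**
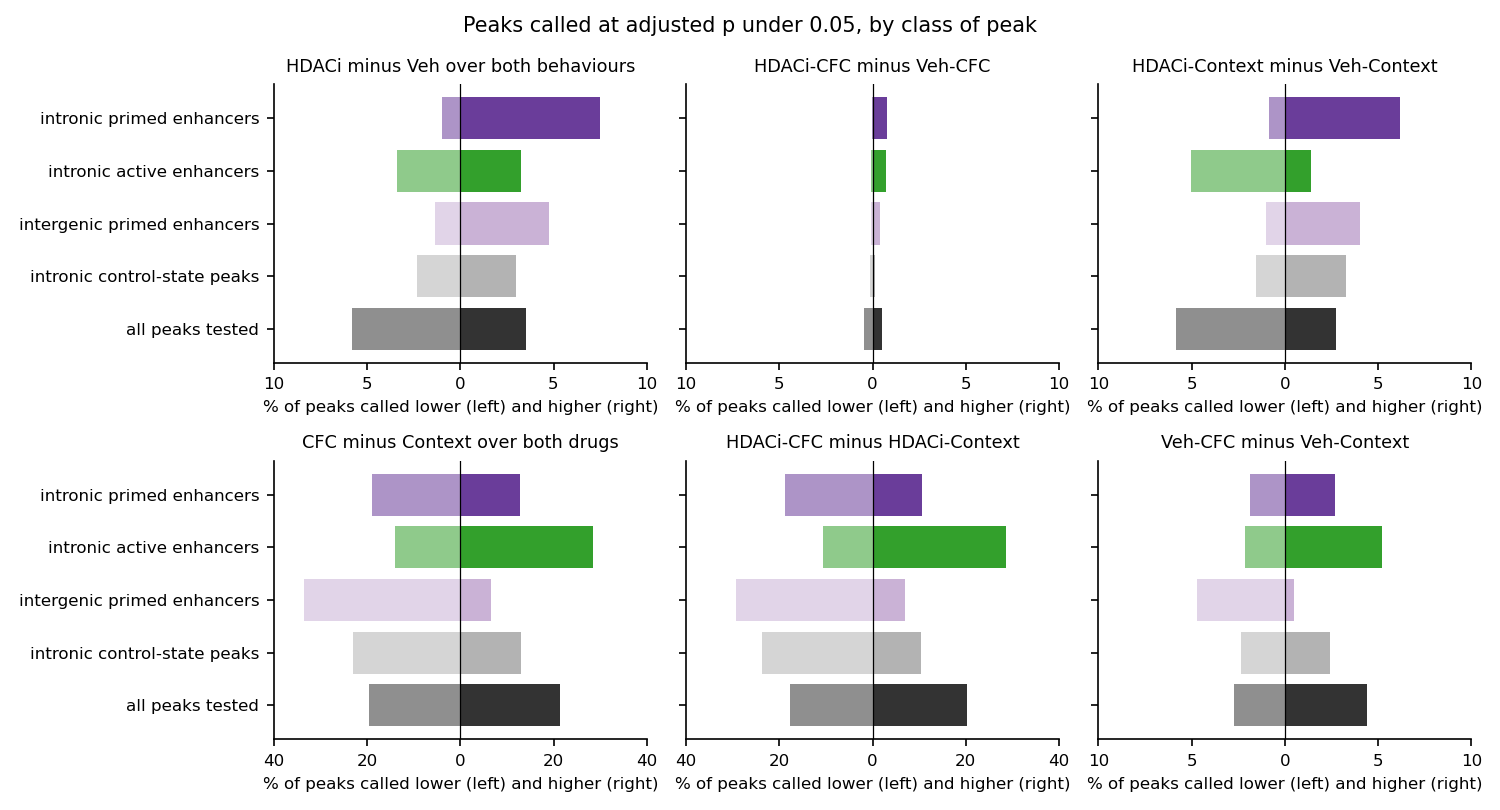
Percent of tested peaks called higher (right) and lower (left) at adjusted p under 0.05 in each class of peak, for the drug and shock comparisons. Intronic primed enhancers were called higher under CI-994 in 7.47% and lower in 0.995%, and all peaks in 3.52% and 5.81%.

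Among members whose HDACi and Veh libraries did not overlap, a member in intron 1 of Chn1 (chr2:73647793-73650380) stood near the top. Chn1 encodes chimaerin 1, a GTPase-activating protein for Rac that acts in axon guidance. It had 10.8, 11.6 and 11.2 CPM in HDACi-CFC, against 3.34, 6.26 and 6.37 CPM in Veh-CFC, and 11.5, 14.0 and 12.9 CPM in HDACi-Context, against 6.87, 6.77 and 5.81 CPM in Veh-Context. Every HDACi library was above every Veh library, and the log2 change was 1.03 ± 0.12 (SE, edgeR adjusted p = 1.0e-07). Intron 1 of Slc7a14, a member of the cationic amino acid transporter family, held a wider peak (chr3:31295214-31300739). It had 23.3, 30.5 and 29.2 CPM in HDACi-CFC, against 11.4, 14.1 and 17.0 CPM in Veh-CFC, and 26.4, 37.6 and 30.1 CPM in HDACi-Context, against 15.2, 16.0 and 15.1 CPM in Veh-Context. Here too the groups stood apart, with a change of 1.00 ± 0.10 (adjusted p = 3.1e-09).

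Crebbp, which encodes the acetyltransferase CBP that acetylates lysine 27 itself, held a member in intron 2 (chr16:4159093-4161859). Its levels were 12.2, 10.7 and 11.5 CPM in HDACi-CFC, against 5.52, 7.85 and 6.37 CPM in Veh-CFC, and 14.7, 16.0 and 17.8 CPM in HDACi-Context, against 9.41, 6.77 and 7.79 CPM in Veh-Context. No library of one treatment reached into the other, and the change was 0.89 ± 0.11 (adjusted p = 2.9e-07). Scn2a, the gene of the neuronal sodium channel Nav1.2, had a member in intron 1 (chr2:65634475-65639500) at 19.9, 19.1 and 20.2 CPM in HDACi-CFC, against 7.96, 12.4 and 13.4 CPM in Veh-CFC. In Context the same peak had 22.6, 27.6 and 26.6 CPM with CI-994, against 14.1, 13.8 and 11.8 CPM with vehicle, for a change of 0.88 ± 0.10 (adjusted p = 5.7e-08). Other members near the top by size were those of Ddah1 (0.96 ± 0.17), a peak in intron 5 of Jarid2 named for Dtnbp1 (1.34 ± 0.28) and Camta1 (0.93 ± 0.31). The Camta1 call had an adjusted p of 0.049 and was lost in 13 of the alternatives, whereas the calls of Chn1, Slc7a14, Crebbp and Scn2a were kept in all 19.

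Of the 228 members that fell under CI-994, 122 were in the highest of 3 equal sets by mean CPM, 57 in the middle and 49 in the lowest. Among those named for the size of their change was a weak peak in intron 5 of Fam53a (chr5:33604818-33605672), which had 1.38, 1.04 and 1.60 CPM in HDACi-CFC, against 2.18, 2.54 and 2.12 CPM in Veh-CFC, and 1.60, 0.811 and 0.476 CPM in HDACi-Context, against 2.76, 1.77 and 2.50 CPM in Veh-Context. All HDACi libraries were below all Veh libraries, and the change was −1.04 ± 0.25 (adjusted p = 0.0031). A member in intron 8 of Hdac4, a class IIa histone deacetylase, named for Twist2 (chr1:91988006-91989141), changed by −0.68 ± 0.19 (adjusted p = 0.015). This call was lost without HDACi-CFC replicate 1, HDACi-Context replicate 2, Veh-CFC replicate 1 or Veh-Context replicate 3. Polr2j, a subunit of RNA polymerase II, had a member in intron 1 that changed by −0.86 ± 0.26. Its adjusted p was 0.023, and the call was lost without HDACi-Context replicate 2 or 3, Veh-CFC replicate 1 or Veh-Context replicate 3. A far stronger peak in intron 1 of Rab11fip2, an effector of the recycling GTPase Rab11, was among the densest members. It had 35.9, 46.4 and 46.1 CPM in HDACi-CFC, against 44.1, 55.2 and 61.3 CPM in Veh-CFC, and 27.3, 31.8 and 30.8 CPM in HDACi-Context, against 47.5, 43.7 and 48.4 CPM in Veh-Context. The groups overlapped in CFC and stood apart in Context, with a change of −0.48 ± 0.09 over both (adjusted p = 0.00011).

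**Figure D2:**
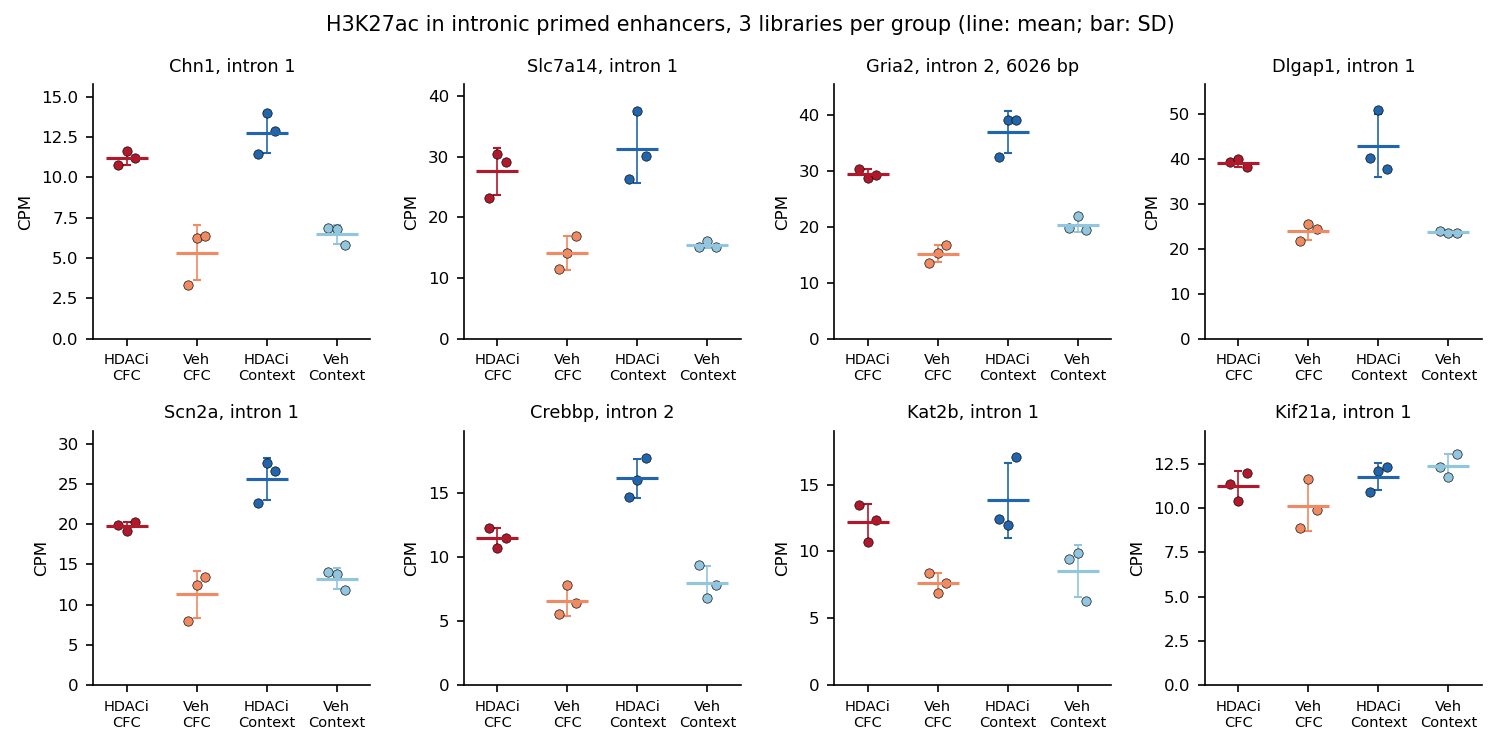
Levels in CPM (y axis, from 0) of 7 members that rose under CI-994 and of Kif21a, by group (x axis), each point 1 library, each line the group mean and each bar the SD. In Chn1 the HDACi libraries sat between 10.8 and 14.0 CPM and the Veh libraries between 3.34 and 6.87 CPM.

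Wide and strong members were called more often. Split into 3 equal sets by width, 1343 rose and 118 fell among the widest (1711 to 9997 bp), 312 and 65 in the middle set, and 57 and 45 among the narrowest (206 to 896 bp), with medians of 0.14, 0.080 and 0.035. In 3 equal sets by mean CPM the rises numbered 1348 in the highest, 307 in the middle and 57 in the lowest. Members in the first intron rose in 9.27% (850 of 9172), against 6.27% (862 of 13739) in later introns. In 3 equal sets by distance to the TSS the same shares were 8.21% against 6.37% in the nearest, 10.1% against 5.84% in the middle and 11.0% against 6.57% in the farthest.

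Members were also counted by the gene named beside them. Of 7772 genes with a tested member, 1025 had at least 1 that rose under CI-994 and 225 at least 1 that fell. Of 363 genes named beside at least 10 tested members, 251 had at least 1 member that rose and 11 at least 1 that fell, and 329 had a positive median change. A gene with more members has more chances to hold a called one. These counts are read beside the 7.47% of all members that rose. Among the 10 genes with the most members, Celf2, an RNA-binding regulator of splicing, had 22 of 45 that rose and none that fell (median 0.37). Dab1, the adaptor of the reelin receptors, had 11 of 48 (0.25), and Grin2b, an NMDA receptor subunit, had 9 of 40 (0.27). Csmd1 had 9 of 51 (0.24), Dlg2, a scaffold of the postsynaptic density, 9 of 87 (0.14), and Dlgap2, another such scaffold, 6 of 47 (0.24). Rbfox1 had 5 of 57, Ptprg 4 of 48, Lsamp 3 of 55 with 1 that fell, and Phactr1 2 of 45. Auts2 (15 of 38), Rere (12 of 27) and Dlgap1 (11 of 27) were picked after their values were seen, and none of their members fell. Peaks of 1 gene share the locus and are not independent of each other.

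Gria2, which encodes the AMPA receptor subunit that limits calcium entry and was likewise picked after its values were seen, held 11 members. Of these, 8 rose under CI-994 and none fell, with a median of 0.53 and a range of −0.04 to 0.93. The peak with the smallest p lay in intron 2 (chr3:80772135-80778160). It had 30.4, 28.7 and 29.4 CPM in HDACi-CFC, against 13.6, 15.4 and 16.7 CPM in Veh-CFC, and 32.6, 39.2 and 39.2 CPM in HDACi-Context, against 19.9, 21.9 and 19.4 CPM in Veh-Context. Its change was 0.91 ± 0.09 (edgeR adjusted p = 8.8e-10), with every HDACi library above every Veh library. A pair of narrower peaks in the same intron, at chr3:80783827-80789232 and chr3:80762961-80764810, changed by 0.85 ± 0.09 and 0.93 ± 0.14. The widest member of the gene, at chr3:80749243-80757455 in the same intron, changed by 0.50, and the one at chr3:80708602-80709537 in intron 9 by −0.04.

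**Figure D3:**
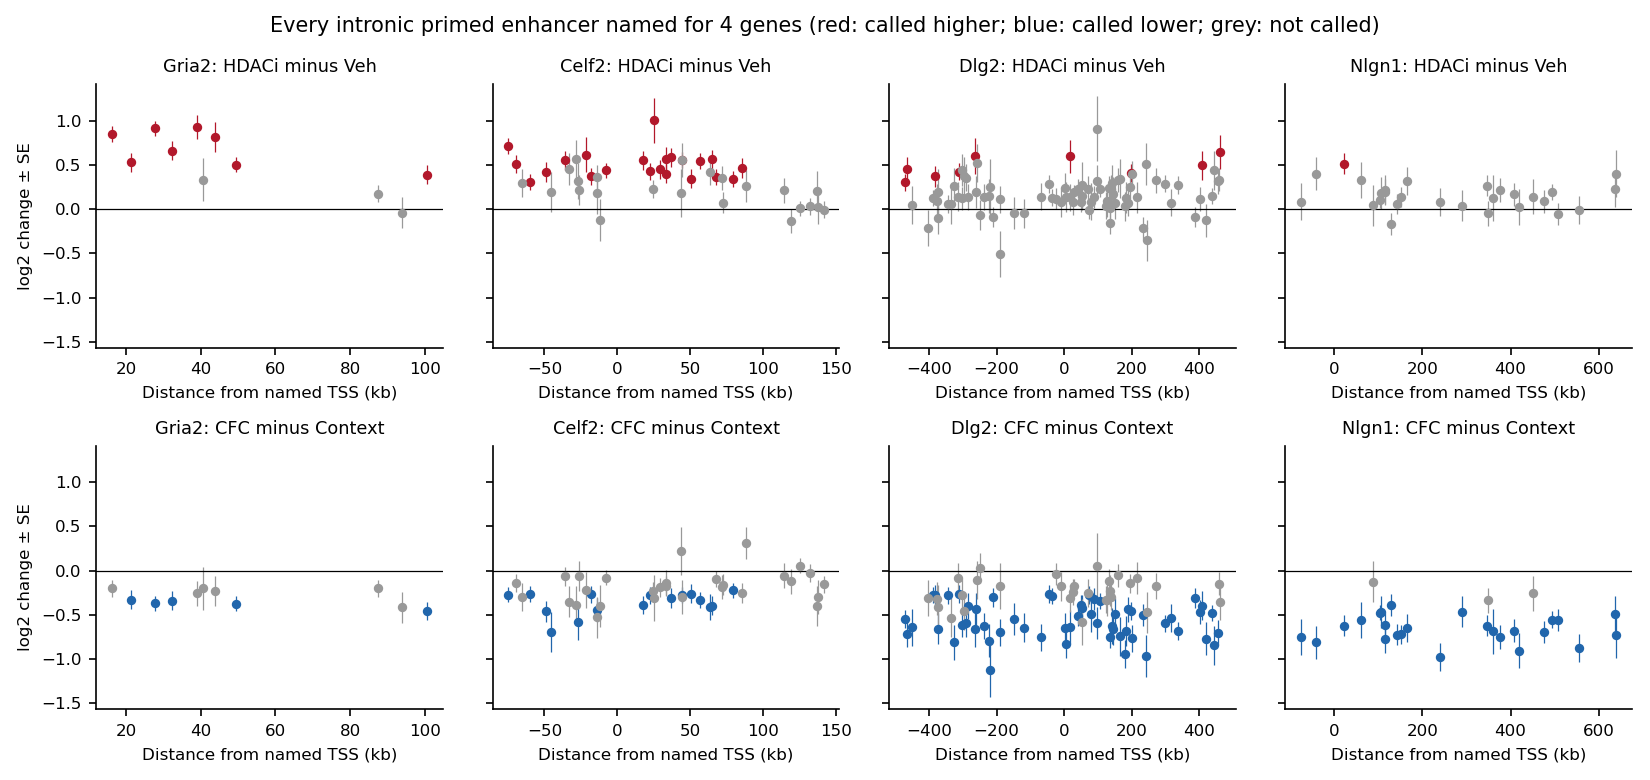
Log2 change (y axis) of each intronic primed enhancer named for 4 genes against its distance from the named TSS in kb (x axis), for the drug and the shock, with points in red called higher, blue called lower and grey not called, and bars for the SE. For Gria2, 8 of 11 points were called higher under CI-994 and 5 called lower with the shock.

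The gene lists were described by their members' counts, beside the 7.47% that rose, the 0.995% that fell and the median of 0.088 over all members. The share that rose was 8.08% for ion channel genes, 8.44% for axon guidance and adhesion genes and 9.21% for presynaptic genes, near that over all members, and it reached 22.1% for GABA receptor genes. Glutamate receptor and postsynaptic genes had 381 members, of which 50 rose and none fell (median 0.16). Besides Gria2 these included a peak in intron 1 of Dlgap1 (0.79 ± 0.09, adjusted p = 1.7e-08), a scaffold partner of PSD-95. Of 239 members of presynaptic genes 22 rose and none fell (median 0.15), with a peak in intron 1 of Syt1, the calcium sensor of vesicle release, at 0.49 ± 0.09 and one in intron 2 of Stxbp5l at 0.58 ± 0.10. Of 545 members of axon guidance and adhesion genes 46 rose and 2 fell (median 0.18). A peak of 7731 bases in intron 1 of Dscam, an adhesion molecule of the immunoglobulin family, changed by 0.65 ± 0.09, and one in intron 4 of Adgrl3, the latrophilin 3 receptor, by 0.74 ± 0.11.

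Among 334 members of ion channel genes there were 27 rises and 1 fall (median 0.13), with a peak in intron 1 of Scn8a, the gene of the sodium channel Nav1.6, at 0.56 ± 0.09. Of 68 members of GABA receptor genes 15 rose and none fell (median 0.18).

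In signalling genes 60 of 513 members rose and 1 fell (median 0.16). Intron 1 of Ppp3ca, the catalytic subunit of calcineurin, held a peak at 44.6, 53.8 and 49.1 CPM in HDACi-CFC, against 24.7, 33.4 and 36.5 CPM in Veh-CFC, and 38.8, 48.3 and 45.7 CPM in HDACi-Context, against 30.5, 29.9 and 30.1 CPM in Veh-Context. Its change was 0.60 ± 0.09 (adjusted p = 4.8e-06), and the HDACi and Veh libraries did not overlap. A peak in intron 1 of Mapk8, the kinase JNK1, changed by 0.80 ± 0.12 (adjusted p = 3.5e-06). Of 147 members of mTOR pathway and growth factor receptor genes 15 rose and none fell (median 0.14), among them peaks of Deptor, an inhibitor of mTOR (0.78 ± 0.14), and Rictor, a subunit of its second complex (0.60 ± 0.11). Of 156 members of histone deacetylase and acetyltransferase genes 20 rose and 2 fell (median 0.18), with a peak in intron 1 of the acetyltransferase gene Kat2b at 0.70 ± 0.12. Activity-regulated genes had 45 members, of which 5 rose and none fell, and a peak in intron 3 of the transcription factor gene Mef2c changed by 0.46 ± 0.09.

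Members beside cell type markers were few, granule neuron markers included. None of 28 members of granule neuron markers was called (median 0.13), while 2 of 16 of pyramidal neuron markers and 2 of 15 of interneuron markers rose. Of 24 astrocyte members 1 rose (median 0.022) and 3 of 25 rose for oligodendrocyte precursors, and of 8 for oligodendrocytes 1 rose and 1 fell. None of 13 microglial and none of 10 endothelial and mural members was called by edgeR. No promoter peak was tested for Aqp4, Cldn5, Flt1 or Pecam1, which mark astrocytes and endothelium.

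Set apart by behaviour, the CI-994 effect was called far more often in Context mice. Depth was not equal, however. Mean counts in peaks were 8.24e+06 for vehicle and 1.22e+07 for CI-994 with the shock, against 1.12e+07 and 1.47e+07 without it. The part of depth in the number of calls was not tested. With all libraries, no member passed the edgeR test of the drug by behaviour interaction given below. In HDACi-Context against Veh-Context 1413 members rose and 192 fell, where 2.73% of all peaks rose and 5.85% fell, with a median of 0.16 in members. In HDACi-CFC against Veh-CFC 180 rose and 9 fell, where 0.483% of all peaks rose and 0.435% fell, with a median of 0.039. Intronic active enhancers did much the same in CFC, where 166 (0.741%) rose and 17 fell, with a median of 0.053. In Context 318 of them rose and 1128 fell, with a median of −0.071. Of the members that rose, 122 were called in both, which was 67.8% of the rises in CFC and 8.63% of those in Context, and 0.207% of all peaks were. Single libraries moved these counts. In Context the rises numbered 525 without HDACi-Context replicate 2, 672 without replicate 3 of that group and 447 without Veh-Context replicate 3. The falls numbered 441, 65 and 58 as HDACi-Context replicates 1, 2 and 3 were left out in turn, 120 without Veh-Context replicate 2 and 50 without Veh-Context replicate 3. In CFC the rises numbered 72, 56 and 42 as HDACi-CFC replicates 1, 2 and 3 were left out in turn, 55 without Veh-CFC replicate 2 and 116 without Veh-CFC replicate 3, and the falls ranged over 0 to 29 as each library was left out.

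In CFC mice, all 180 members that rose had HDACi libraries above the Veh libraries, as did 695 of the 696 rises over all peaks. These were 0.786% of the members tested and 0.483% of all peaks. The change in the Chn1 member was 1.06 ± 0.18 (adjusted p = 0.0017) and in the Slc7a14 member 0.96 ± 0.15 (adjusted p = 0.00059), close to their values in Context mice of 0.99 ± 0.16 and 1.03 ± 0.14. A peak in intron 6 of Bphl named for Tubb2a, a neuronal tubulin, had 19.1, 20.0 and 16.0 CPM in HDACi-CFC, against 6.94, 9.65 and 11.5 CPM in Veh-CFC. These groups did not overlap (0.98 ± 0.16, adjusted p = 0.0010). Among the falls in CFC mice was a peak in intron 2 of Gpr158, an orphan receptor, with 0.797, 1.35 and 1.18 CPM in HDACi-CFC, against 3.08, 2.86 and 2.27 CPM in Veh-CFC. Its change was −1.34 ± 0.32 (adjusted p = 0.025), and the call was lost without any HDACi-CFC replicate or without Veh-CFC replicate 1 or 2. Among 16 members named for the largest changes in Context mice, no call was kept in every alternative. One of them, in intron 4 of Map2, a dendritic microtubule protein, had 2.09, 2.55 and 2.18 CPM in HDACi-Context, against 0.747, 1.03 and 0.515 CPM in Veh-Context (1.65 ± 0.40, adjusted p = 0.0049, lost without Veh-Context replicate 3).

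With the shock, called members close to a TSS were mostly rises and called members far from one mostly falls. Over both treatments 2949 rose and 4336 fell, where 21.4% of all peaks rose and 19.7% fell, and 832 and 793 of them had no overlap between the 6 CFC and 6 Context libraries. That was 3.63% and 3.46% of the members tested, where 5.82% and 4.44% of all peaks did the same. As shares of the called peaks these were 28.2% and 18.3% in members, against 27.2% and 22.6% over all peaks. The median was −0.10 in members and −0.032 over all peaks. Intronic active enhancers had 6393 rises and 3121 falls, and intergenic primed enhancers 549 and 2779. The split moved with the scaling: 40.5% of the called members were rises with TMM on all peaks, 53.9% (3625 rises, 3104 falls) with TMM on peaks outside promoters, and 27.1% (2309 and 6204) with library totals. Of the scalings tried, library totals shifted the median of all peaks the most, by −0.13 in HDACi-CFC against HDACi-Context.

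The order by distance held in each of these scalings. Of 3 equal sets, the nearest (within 11618 bp) had 1910 rises and 546 falls, the middle 751 and 1334, and the farthest (from 46001.5 bp) 288 and 2456, with medians of 0.10, −0.10 and −0.26. With TMM on peaks outside promoters the counts were 2307 and 369, 922 and 912, and 396 and 1823, and with library totals 1541 and 935, 561 and 1986, and 207 and 3283. In the same sets 574, 569 and 569 members rose and 150, 50 and 28 fell under CI-994, so the number of drug rises did not follow distance while the number of falls did. The median drug change was higher farther from the TSS, at 0.058, 0.094 and 0.11 in the nearest, middle and farthest set. Promoter peaks took a larger share of counts in CFC than in Context libraries, which moves with this order, and its part in it was not tested.

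**Figure D4:**
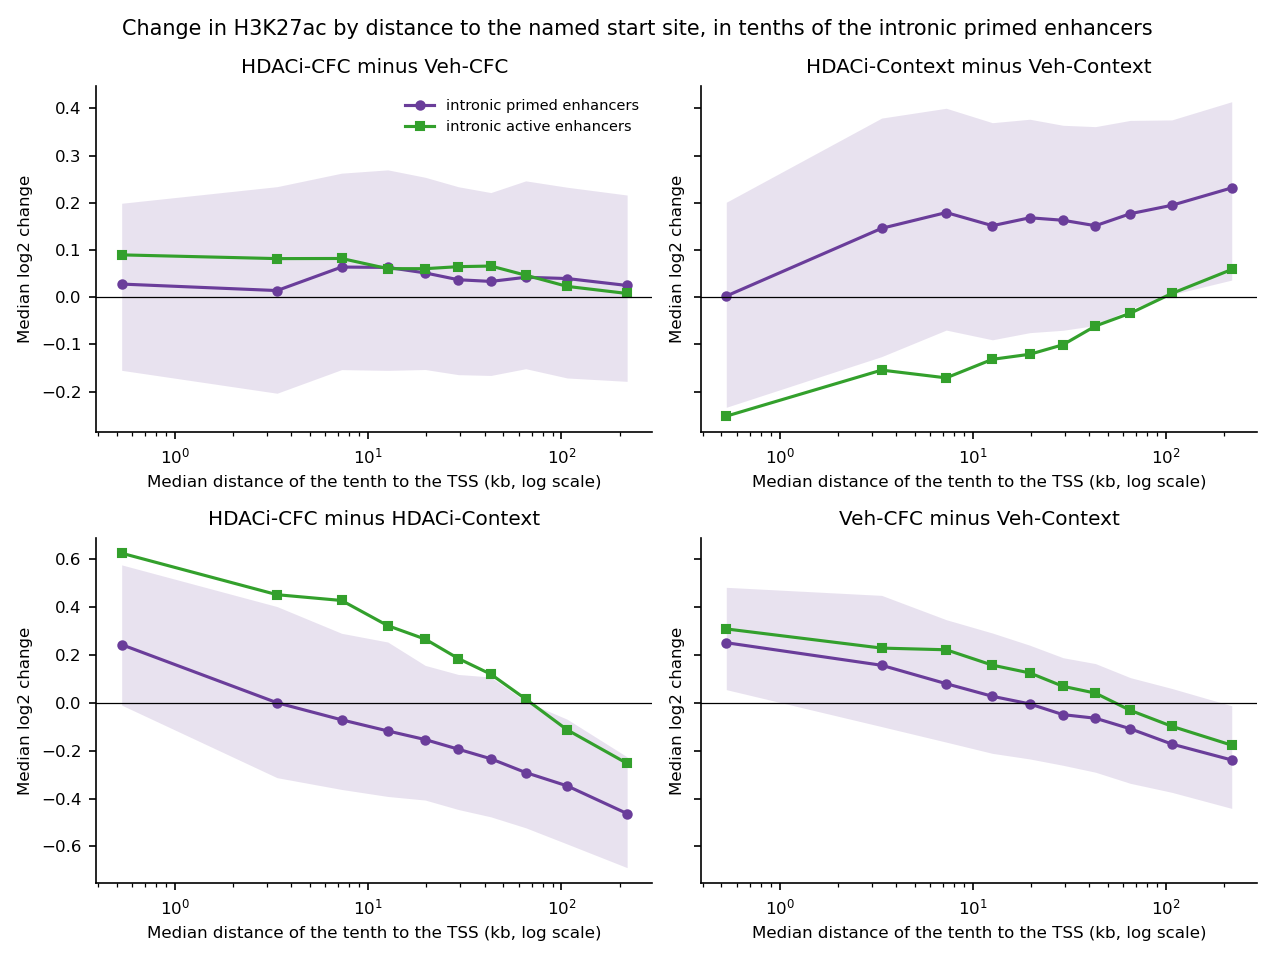
Median log2 change (y axis) in 10 equal bins of the intronic primed enhancers by distance to the named TSS (x axis, kb on a log scale), with the intronic active enhancers put into the same bins and drawn at the same places, and shading from the lower to the upper quartile of the members. In HDACi-CFC against HDACi-Context the members had medians between 0.24 in the nearest bin and −0.46 in the farthest.

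Some of the members named for the largest rises were faint in Context libraries. One in intron 7 of Abhd16a had counts of 20, 7 and 11 in HDACi-CFC and 18, 13 and 4 in Veh-CFC, against 2, 1 and 1 in HDACi-Context and 1, 1 and 1 in Veh-Context. The smallest count in the deposited table is 1, which may stand for an empty cell, so no fold is given for it. One in intron 6 of Pus1, a pseudouridine synthase, had 2.25, 2.29 and 2.10 CPM in HDACi-CFC and 3.21, 1.48 and 2.27 CPM in Veh-CFC, against 0.626, 0.290 and 0.136 CPM in HDACi-Context and 0.149, 1.03 and 0.515 CPM in Veh-Context. All CFC libraries were above all Context libraries (2.42 ± 0.34, adjusted p = 2.2e-07).

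Among stronger members, the Prkaca member that holds the promoter sequence above (intron 1, 7300 bp) had 31.7, 30.6 and 35.5 CPM in HDACi-CFC and 30.4, 25.6 and 21.4 CPM in Veh-CFC, against 16.5, 15.2 and 11.2 CPM in HDACi-Context and 14.7, 17.4 and 18.5 CPM in Veh-Context. CFC and Context libraries did not overlap, and the change was 0.90 ± 0.10 (adjusted p = 1.7e-09). A weaker one in intron 9 of Pias4, a SUMO ligase, changed by 3.52 ± 0.69 under CI-994 (adjusted p = 0.0042). It had 9.71, 7.80 and 8.06 CPM in HDACi-CFC, against 1.95, 0.232 and 0.136 CPM in HDACi-Context. The lower of these Context levels lie close to the smallest deposited count, so the size of the change is uncertain. A member in intron 1 of Pxn, the focal adhesion protein paxillin, changed by 1.01 ± 0.11 with the shock (adjusted p = 9.3e-10). It was also named for the drug by behaviour interaction, which did not pass the threshold (edgeR adjusted p = 0.083).

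Among the named falls with the shock, in intron 2 of Tenm2, a teneurin that acts as a synaptic adhesion molecule, a member 163600 bp from the TSS had 1.59, 1.35 and 1.26 CPM in HDACi-CFC and 1.67, 1.06 and 1.56 CPM in Veh-CFC, against 3.68, 4.06 and 4.35 CPM in HDACi-Context and 3.06, 3.83 and 2.65 CPM in Veh-Context. The groups stood apart under either treatment (−1.32 ± 0.20, adjusted p = 1.0e-06). A member in intron 8 of Cadps2, a factor of dense-core vesicle release, named for Rnf133, changed by −1.58 ± 0.29. One in intron 5 of Macrod2 named for Flrt3 changed by −1.25 ± 0.22, and one in intron 2 of Hdac4 by −1.36 ± 0.38. In intron 4 of Lrrc4c, the netrin-G ligand, a member had 1.67, 3.02 and 2.44 CPM in HDACi-CFC, against 5.91, 6.90 and 7.35 CPM in HDACi-Context. These did not overlap (−1.53 ± 0.23, adjusted p = 1.5e-06), while 1.41, 1.59 and 3.54 CPM in Veh-CFC, against 3.88, 3.09 and 3.31 CPM in Veh-Context, did (−0.71 ± 0.29, adjusted p = 0.11).

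**Figure D5:**
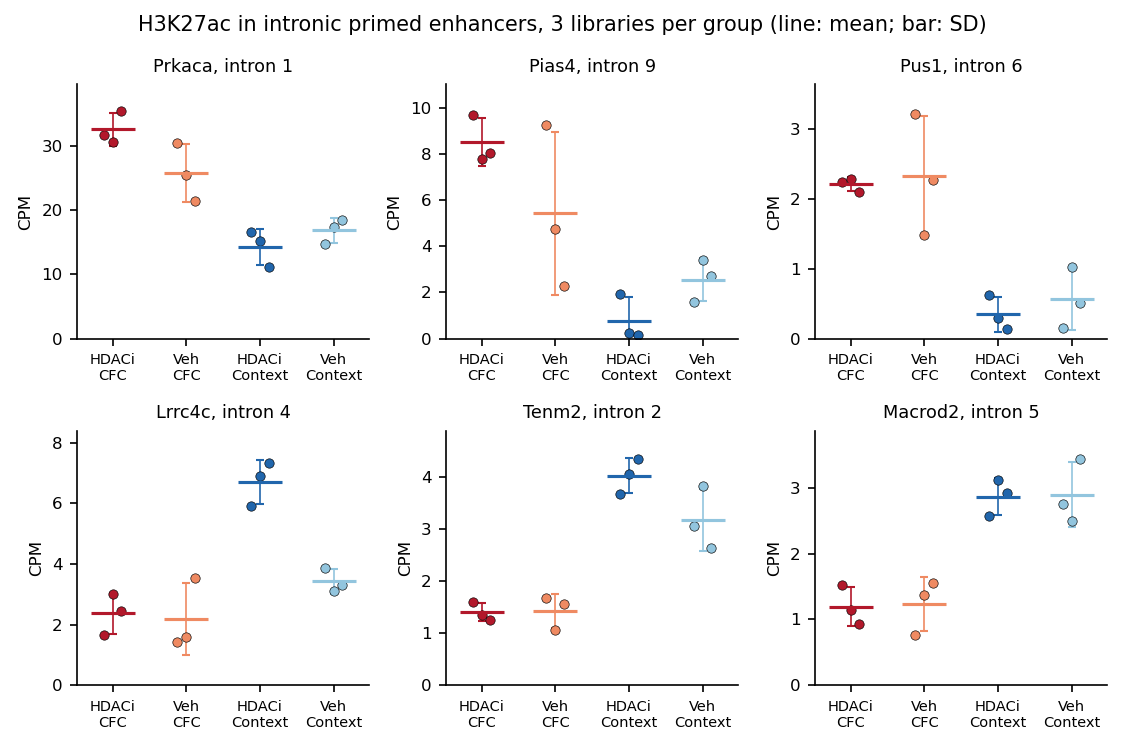
Levels in CPM (y axis, from 0) of 6 members that changed with the shock over both treatments or under CI-994, by group (x axis), each point 1 library, each line the group mean and each bar the SD. In Tenm2 the CFC libraries sat between 1.06 and 1.67 CPM and the Context libraries between 2.65 and 4.35 CPM.

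By gene, the falls are given beside the 18.9% of all members that fell with the shock and the 12.9% that rose. The share that fell was 7.15%, 17.5% and 32.2% in the nearest, middle and farthest set by distance to the TSS. Members of Dlg2 lay up to 471668 bp and those of Nlgn1 up to 639763 bp from it. Neither the genes nor the lists below were compared at equal distance. Dlg2 had 57 of 87 members that fell and none that rose (median −0.46), Lsamp 33 of 55, Csmd1 30 of 51 with 1 that rose, and Rbfox1 23 of 57. Dab1 and Ptprg had 17 each of 48 and Celf2 16 of 45, with no rise. Grin2b had 6 of 40, Phactr1 5 of 45, and Dlgap2 4 of 47 with 4 that rose. Nlgn1 (25 of 28, median −0.63), a neuroligin of the postsynaptic membrane, was picked after its values were seen, as were the genes of the opposite kind. Those were Cdc42bpb, with 7 of 12 that rose (median 0.52), and Taf4, with 8 of 16 (median 0.36), and none of either fell. Of the 363 genes with at least 10 tested members 125 had a rise, 305 had a fall and 68 had a positive median.

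By list, read beside the same 18.9% and 12.9%, 285 of 545 members of adhesion and guidance genes fell and 11 rose (median −0.41), 122 of 239 of presynaptic genes fell and 4 rose (−0.39), and 157 of 381 of glutamate receptor and postsynaptic genes fell and 13 rose (−0.30). GABA receptor genes had 29 of 68 that fell and 1 that rose (−0.32). Channel genes had 89 falls and 27 rises (−0.19), mTOR pathway genes 32 and 8 (−0.17), histone deacetylase and acetyltransferase genes 32 and 12 (−0.15), signalling genes 111 and 40 (−0.13) and activity-regulated genes 10 and 5 (−0.09). The share that fell in the last 4 lists, 20.5 to 22.2%, was near that over all members. Among marker lists, granule neuron members had 3 falls and 2 rises, pyramidal 5 and 1, interneuron 4 and 1, astrocyte 2 and 4, oligodendrocyte 1 and 1, their precursors 5 and 2, microglial 3 and 2, and endothelial and mural 4 and 1. The drug and the shock comparison use the same 12 libraries, so no relation between the effects was computed.

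Under vehicle alone, 621 members rose and 429 fell, where 4.41% of all peaks rose and 2.74% fell, with a median of −0.015. In these mice 59.1% of the called members were rises, against 74.7% (817 and 277) with TMM on peaks outside promoters and 45.4% (509 and 613) with library totals. The rises numbered 110, 406, 123 and 380 without Veh-CFC replicates 1 and 2 and Veh-Context replicates 1 and 2, and the falls 31, 253, 53, 228 and 251 without those and Veh-Context replicate 3. Under CI-994, 2415 rose and 4321 fell, where 20.2% of all peaks rose and 17.8% fell, with a median of −0.17. Rises were 35.9% of those calls, 50.1% (2948 and 2936) with TMM on peaks outside promoters and 20.8% (1798 and 6864) with library totals, and falls numbered 2846, 2615 and 2620 without HDACi-CFC replicate 3 or HDACi-Context replicates 2 or 3. Of the rises 503 were called under both treatments, 81.0% of those under vehicle and 20.8% of those under CI-994, where 3.97% of all peaks were. Of the falls 351 were, 81.8% and 8.12%, where 2.13% of all peaks were.

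No member passed the test of the drug by behaviour interaction in edgeR, where 0.034% of all peaks passed in the positive and 0.000694% in the negative direction. DESeq2 called 3 in the positive and 1 in the negative direction. At an unadjusted p under 0.05 edgeR gave 527 positive and 1299 negative members, where 7.4% and 4.07% of all peaks were, with a median of −0.10 in members, 0.12 in intronic active enhancers and 0.007 over all peaks. Without HDACi-Context replicate 1 the calls were 114 and 58, without Veh-CFC replicate 1 69 and 52, and without Veh-Context replicate 1 11 and 9. The smallest p in the negative direction belonged to a member in intron 1 of Mrtfb, a coactivator of serum response factor. It had 1.23, 1.14 and 1.51 CPM in HDACi-CFC, against 2.83, 2.33 and 2.27 CPM in Veh-CFC, and 2.99, 2.38 and 3.26 CPM in HDACi-Context, against 1.27, 0.589 and 1.69 CPM in Veh-Context (−2.08 ± 0.44, adjusted p = 0.055). CI-994 libraries were thus below vehicle in CFC and above it in Context, and the difference did not pass the threshold.

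The 220 members that hold a RefSeq promoter sequence rose more often with the shock than other members. With the shock 80 rose and 21 fell (36.4% and 9.55%), against 2869 and 4315 of the other 22691. Over all peaks 21.4% rose and 19.7% fell with the shock. Under CI-994 29 rose and 16 fell (13.2% and 7.27%), against 1683 and 212. Over all peaks 3.52% rose and 5.81% fell under CI-994. The 220 members were wider than the others, with a median of 3584.5 bp against 1215 bp. They also hold sequence next to a transcription start. Of all members within 11618 bp of the named TSS, 25.0% rose and 7.15% fell with the shock. Whether the difference goes beyond width and nearness to a TSS was not tested. The Polr2a member shown above had 56.5, 62.1 and 56.1 CPM in HDACi-CFC, against 64.9, 73.1 and 72.1 CPM in Veh-CFC, and 44.2, 50.8 and 36.3 CPM in HDACi-Context, against 64.0, 59.6 and 68.9 CPM in Veh-Context. In each behaviour the HDACi libraries lay below the Veh libraries (−0.41 ± 0.08, adjusted p = 0.00038). The Dyrk1a member had 22.2, 23.0 and 25.3 CPM in HDACi-CFC, against 14.9, 19.2 and 17.7 CPM in Veh-CFC, and 27.2, 32.6 and 26.8 CPM in HDACi-Context, against 21.0, 20.9 and 19.1 CPM in Veh-Context. Here the HDACi libraries lay above (0.48 ± 0.09, adjusted p = 0.00026).

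The promoter sequences in called members differed in base composition, which is given as a description. Their median GC content was 46.8% in members that rose under CI-994 (32 sequences), 55% in those that fell (24), 54.4% in those that rose with the shock (97) and 44.6% in those that fell with it (22), against 49.6% in all 249 and 52.4% over all 32851. The motif GGGCGG, the core bound by Sp1, was found on either strand in 15.6, 37.5, 34.0 and 4.55% of those groups in the same order, against 21.7% of all 249 sequences in members and 32.7% of all RefSeq promoter sequences of this length. Over the 220 members the GC content of the sequence and the change had a Pearson correlation of −0.22 and a Spearman correlation of −0.20 for CI-994 over both behaviours. Set apart by behaviour they were 0.0041 and 0.0060 in CFC mice and −0.34 and −0.34 in Context mice. For the shock over both treatments they were 0.49 and 0.54. The members share the 12 libraries.

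Of the microRNA hosts, the Cdk17 member with mmu-miR-1931 had 47.7, 49.6 and 52.4 CPM in HDACi-CFC, against 36.1, 35.9 and 35.0 CPM in Veh-CFC, and 40.6, 42.8 and 42.2 CPM in HDACi-Context, against 36.8, 25.8 and 34.0 CPM in Veh-Context. The HDACi libraries were all above the Veh libraries (0.42 ± 0.08, adjusted p = 0.00036). The Atp5b member with mmu-miR-677-5p changed by 0.55 ± 0.09 with the shock (adjusted p = 1.5e-05) and the Fads1 member with mmu-miR-6993-5p by 0.58 ± 0.09 (adjusted p = 2.1e-06). A microRNA in a member says nothing here of its own level, which was not measured.

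At the width limit, the 3 members just under it were peaks of Syt11, Celf2 and Mbnl2, and the 3 otherwise eligible peaks just over it were those of Mprip, Nfasc and Wasf3. Under CI-994 the first 3 changed by 0.27 ± 0.08, 0.01 ± 0.08 and 0.11 ± 0.08, and the last 3 by 0.19 ± 0.08, 0.25 ± 0.08 and 0.35 ± 0.08.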

How the data were processed

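H3K27ac was measured in 12 immunoprecipitated libraries, and the 12 input samples were not analysed here. Per the submitters' processing notes, the build was mm10 and the tools included HOMER 4.11, MACS2, DESeq2 1.28.1, SAMtools 1.9, Bowtie2 2.3.5, DiffBind 2.16.2 and Trimmomatic 0.38, with no role or settings given. The authors deposited whole-number read counts for 144154 peaks, with a HOMER-style annotation and a ChromHMM state. Column names give no antibody and were taken as the H3K27ac libraries.

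Counts of all peaks were fitted in R 4.3.3 with edgeR 4.0.16 (quasi-likelihood, TMM, filterByExpr with a minimum count of 10, robust estimation, 1 term per group). The filter left 144014 peaks, and p-values were adjusted over all of them. The median biological coefficient of variation was 0.131. SE is the size of the log2 change divided by the root of F. The interaction is (HDACi-CFC minus Veh-CFC) less (HDACi-Context minus Veh-Context). On simulated data the fit called 94% of 2-fold and 31% of 1.5-fold changes for the drug over both behaviours, with 8 false calls among 143691 peaks.

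Replicates differed beyond sampling noise. Same-numbered libraries of different groups mostly did not deviate together, with 2 of 18 pairs at a correlation of deviations over 0.1. Members, gene lists and tests were chosen with earlier results of these data known. Named members had the largest changes among called members without overlap, the smallest p in a list or interaction, the most members per gene, the highest CPM per kb or widths at the limit. Alternatives were DESeq2 1.42.0, 4 scalings, no filter, only the libraries compared, a replicate block, each library left out, a stricter threshold and a narrower width limit.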

Additional observations from a re-analysis of the deposited data

How the results depend on the processing

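Of 446 counts and medians recomputed under the alternatives, 343 stayed within 1.5 times the count, or within 0.019 of the median, and no named member changed direction. With DESeq2, members numbered 118 lower for the drug over both behaviours, 120 lower in Context, 273 higher in CFC, 369 higher and 210 lower for the shock under vehicle, 2417 lower under CI-994 with a median of −0.15, and 3 and 1 for the interaction. RLE size factors gave a median of −0.15 for the shock under CI-994 and 1 lower for the interaction. TMM on peaks outside promoters gave medians of 0.058 for the drug over both behaviours and 0.11 in Context, −0.032 for the shock over both treatments, 0.037 under vehicle and −0.091 under CI-994, and −0.075 for the interaction. It gave 14 lower for the drug in CFC, 277 lower for the shock under vehicle and 1 lower for the interaction. Library totals gave 2130 higher and 120 lower with a median of 0.22 for the drug in Context, 25 lower with 0.0081 in CFC, medians of −0.18, −0.051 and −0.30 for the shock over both, under vehicle and under CI-994, 6864 lower in the last, and −0.20 for the interaction. Loess offsets gave 18 lower and a median of 0.064 for the drug in CFC and −0.15 for the shock under CI-994. With only the libraries compared, 4 were lower for the drug in CFC and 225 for the shock under vehicle, and the median for the shock under CI-994 was −0.14. At an adjusted p under 0.01 the higher and lower counts were 833 and 68 for the drug over both, 534 and 53 in Context, 56 and 0 in CFC, 1954 and 2357 for the shock over both, 135 and 45 under vehicle, and 1517 and 2001 under CI-994. Under 5000 bp, 108 were higher for the drug in CFC.

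As each library was left out, higher counts, lower counts and medians ranged over 1146 to 2005, 131 to 344 and 0.081 to 0.10 for the drug over both behaviours. In Context they ranged over 447 to 1928, 50 to 441 and 0.14 to 0.17, and in CFC over 42 to 245, 0 to 29 and 0.032 to 0.061. For the shock over both they ranged over 2469 to 3184, 3365 to 4716 and −0.12 to −0.084, under vehicle over 110 to 805, 31 to 594 and −0.046 to 0.0033, and under CI-994 over 1645 to 2654, 2615 to 4745 and −0.19 to −0.14. For the interaction they ranged over 0 to 114, 0 to 58 and −0.13 to −0.071. The cause of these changes was not tested.

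The replicate number as a block gave 1 higher and 1 lower for the interaction and left every other count within 1.5 times. Of 18 same-numbered pairs of groups 2 had a correlation of deviations over 0.1 (range −0.28 to 0.35). Pairs of other numbers ranged over −0.29 to 0.24, and 6 of 12 libraries correlated best with their own number. Of 144 calls of named members, 76 were kept in every alternative. In the simulation for the pooled drug effect, 31% of 1.5-fold changes placed in peaks above a minimum mean count were called. A member that was not called may thus still differ by that much, and peaks of lower count were not simulated with a change.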

Other observations

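Chromosome X held few intronic primed enhancers. They numbered 81, or 0.353% of the members, against 2507 or 1.74% of all peaks and 926 or 3.41% of the intronic peaks of the control state, while intronic active enhancers had 99, or 0.442%. Under CI-994 over both behaviours 9 of the 81 rose and none fell, with a median of 0.20. Over all members 7.47% rose and 0.995% fell, with a median of 0.088, and over all peaks 3.52% rose and 5.81% fell.

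Members near a TSS and members far from one also differed under CI-994 in Context mice. In the nearest of 10 equal bins the median change of HDACi-Context against Veh-Context was 0.00, against 0.16 over all members.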
